A study of Mus musculus with 8 samples.

Results

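The constitutive proteasome genes of mouse spleen CD8+ dendritic cells were followed over 4 and 16 hours of culture with and without interferon gamma (IFN-γ). Members were taken by gene symbol: every probe set with exactly 1 platform symbol beginning Psma, Psmb, Psmc or Psmd and a digit, leaving out the interferon-inducible Psmb8, Psmb9 and Psmb10. This gave 45 probe sets of 35 genes, of 8251 genes with 1 symbol on the array, and each gene was read from whichever of its probe sets was brightest on average across the 8 arrays. Of the 35, 31 encode subunits of the particle, Psmd5, Psmd9 and Psmd10 encode chaperones that help assemble its regulatory cap, and Psmc3ip shares only the prefix: it encodes a partner of the recombinases in meiosis.

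The proteasome is the cell's main protease for proteins tagged with ubiquitin. Its barrel-shaped core particle stacks rings of alpha subunits, which gate the entry, around rings of beta subunits, of which Psmb5, Psmb6 and Psmb7 encode the active proteases. A regulatory cap, built of the Psmc ATPases and the Psmd non-ATPases, binds ubiquitin chains, removes them, unfolds the protein and feeds it into the core. IFN-γ is known for inducing Psmb8, Psmb9 and Psmb10, whose products replace the 3 constitutive proteases in newly made cores and alter the peptides available to MHC class I.

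The cells came from female DBA/2J mice aged 60 days, all given 10 µg of Flt3 ligand for 9 days, which expands dendritic cells. Culture lasted 4 or 16 hours, without addition or with mouse IFN-γ at 200 U/ml, and each of the 4 groups had 2 Affymetrix MG-U74Av2 arrays. Whether replicate arrays stem from different animals or wells is not stated, so the p-values speak for the spread of these arrays alone, and that spread may be technical. All values are log2 of the deposited intensity of a probe set, in which a difference of -1 is a halving. The arrays had median intensities from 51.3 to 53.7 over 12422 probe sets, and replicate arrays correlated with r from 0.989 to 0.997 across probe sets. Cd8a, 1 of 11 measured markers of the purified cell, read between 8.74 and 9.08. In each group 2 or 3 of the 11 lay below the median of 15 antisense controls, a measure of unspecific signal. Markers of other cells were measured too. Cd79a and the other 5 B cell markers measured, and all 5 T cell markers measured, lay above that median in the 4 groups. Below it in every group were 1 of 7 granulocyte, 1 of 3 plasmacytoid dendritic cell and 3 of 5 NK cell markers.

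Most subunits of the particle were well above unspecific signal. Over the 8 arrays, Psma2, an alpha ring subunit, had the brightest probe set, with a mean log2 intensity of 10.29, and Psmc4, a cap ATPase, had the dimmest, with 4.07. The median of the antisense controls lay between 5.49 and 5.94. Group means of Psmc4 and Psmc3ip were below it in all 4 groups and those of Psmd2, a scaffold subunit of the cap, in 2, so the values of these 3 genes lie within the range of unspecific signal. Levels of different probe sets are not compared further, since each probe set binds with its own strength.

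Between 4 and 16 hours in medium alone, the subunits were lower together. Of the 35 genes, 33 had a negative difference, 13 fell by limma and none rose, where 2.57% of all 12422 probe sets fell. The median difference was -0.56, a ratio of 0.677, beside 0.05 over all probe sets and 0.01 over the 7454 left when the dimmest 40% were dropped. In 31 genes both arrays at 16 hours lay below both at 4 hours, which was so for 20.8% of all probe sets. With IFN-γ the difference between the times had the same sign in 34 of 35 genes, with a median of -0.45, a ratio of 0.734. There 1 gene fell, Psmc1, where 1.3% of all probe sets fell, and again 31 genes had arrays at 16 hours below those at 4 hours, which 17.7% of all probe sets did. Counting all 8 arrays, 29 of the 35 genes had the 4 arrays at 16 hours below the 4 at 4 hours, as did 10.2% of all probe sets.

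Arrays of the same number deviated together, so the number was also fitted as a block (p-values given as blocked are adjusted ones from that fit). With the block, 28 genes fell in medium, where 8.09% of all probe sets did, and 24 with IFN-γ, where 6.94% did. Of these, 23 fell in both media, 82.1% of the first list and 95.8% of the second. The comparisons share no arrays, but their tests share the variance and the block term, which were fitted to all the arrays. The calls are therefore not independent, and lists that each hold most of the members must overlap in many genes. Of the 32 genes above the antisense controls in all 4 groups, 27 fell in medium and 24 with IFN-γ. The genes called in medium and not with IFN-γ were Psma6, Psmb4, Psmc5, Psmd11 and Psmc3ip, the last at the level of unspecific signal, and Psmd10 was called with IFN-γ and not in medium. No gene passed the test of the difference between these time effects, which is the change of the IFN-γ effect. The 6 that fell in neither medium were Psmb1, Psmc4, Psmd2, Psmd5, Psmd8 and Psmd9.

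The count of 13 in medium depended on single arrays, the size of the differences less so. Leaving out either array of the 4-hour medium group gave 0, and array 1 or 2 of the 16-hour medium group gave 1 or 3. Leaving out either 4-hour IFN-γ array gave 2, and either 16-hour IFN-γ array gave 24. Over these 8 fits the median difference in medium lay between -0.69 and -0.46. With IFN-γ the count of 1 became 0 when any 4-hour array or 16-hour IFN-γ array 1 was left out, and 15 when 16-hour IFN-γ array 2 was, while the median lay between -0.60 and -0.30.

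**Figure D1:**
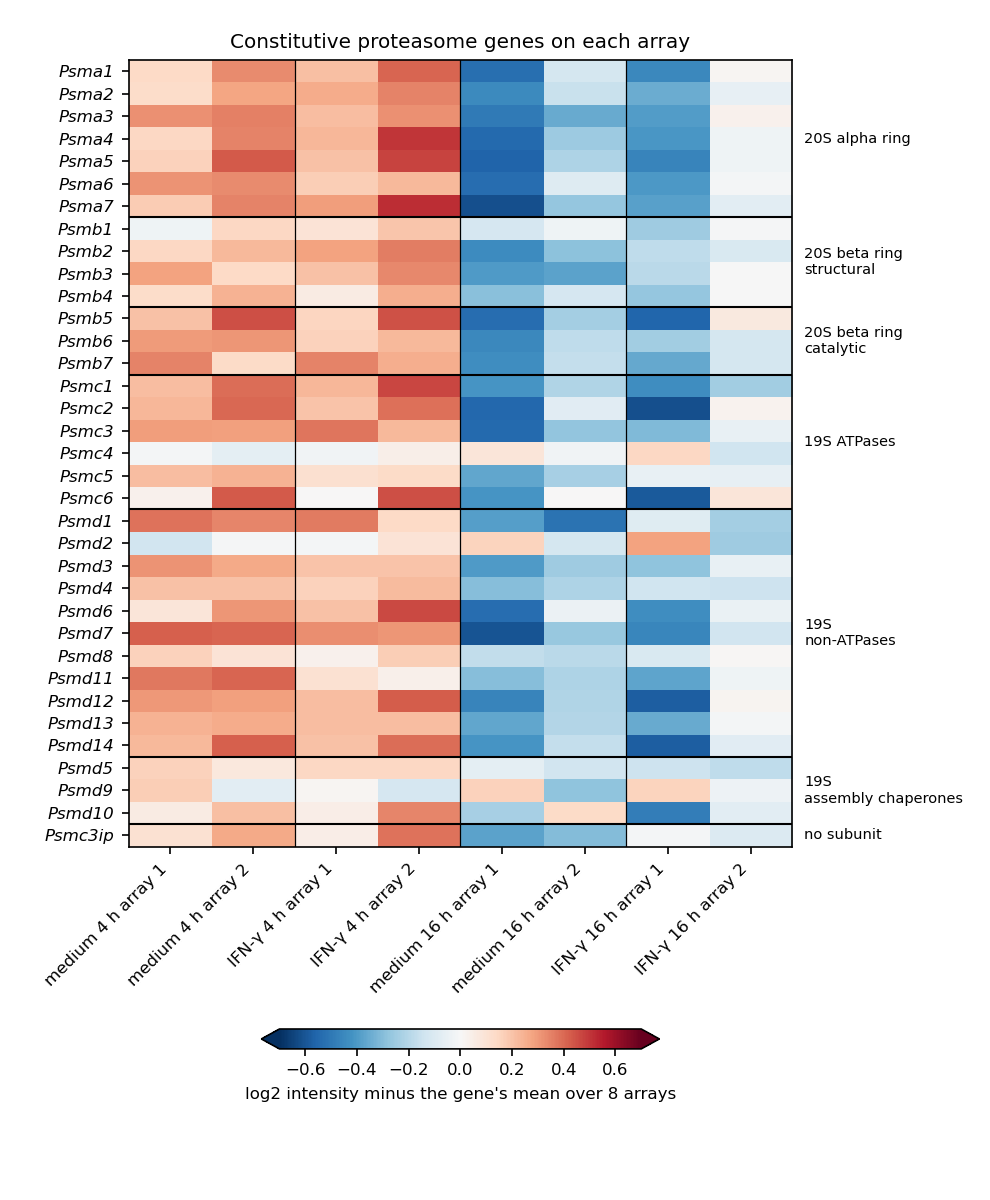
Log2 intensity of each of the 35 genes (rows, grouped by role) on each of the 8 arrays (columns), minus the gene's mean over the 8 arrays. Red is above and blue below that mean: 29 genes have the 4 arrays at 16 hours below the 4 at 4 hours, and in most genes array 1 at 16 hours is below array 2.

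The promoters of all members, fallen or not, were read from RefSeq (assembly GRCm38.p6), from 250 bases before to 50 after the annotated start. This gave a window for 29 of the 35 genes. Each was searched on both strands for TGACNNNGC, the core of the antioxidant response element that the transcription factor NRF1 binds in proteasome genes, and for CCGGAAG, an extended site of ETS factors, and no match of these 2 motifs overlaps another in the members' windows. Windows of Psmb5 and Psmb6, which encode constitutive proteases, of Psmc1, the gene that fell in both media, and of Psmd12, which holds both motifs, are shown 5′ to 3′ along the gene with the matches in capitals. They lie at chr14:54617946-54618245 on the minus strand for Psmb5, and on the plus strand at chr11:70525107-70525406 for Psmb6, chr12:100109952-100110251 for Psmc1 and chr11:107479278-107479577 for Psmd12.
Psmb5: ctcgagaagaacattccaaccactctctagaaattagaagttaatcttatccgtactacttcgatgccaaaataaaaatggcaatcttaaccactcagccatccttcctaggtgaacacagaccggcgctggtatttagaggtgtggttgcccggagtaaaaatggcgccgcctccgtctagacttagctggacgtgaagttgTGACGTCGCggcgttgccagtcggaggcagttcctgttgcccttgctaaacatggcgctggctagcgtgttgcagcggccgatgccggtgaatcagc
Psmb6: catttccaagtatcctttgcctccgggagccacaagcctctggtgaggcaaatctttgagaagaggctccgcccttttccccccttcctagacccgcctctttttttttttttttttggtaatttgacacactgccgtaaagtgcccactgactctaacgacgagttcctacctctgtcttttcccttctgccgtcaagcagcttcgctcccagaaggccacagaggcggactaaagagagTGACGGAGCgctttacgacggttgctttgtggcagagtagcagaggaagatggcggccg
Psmc1: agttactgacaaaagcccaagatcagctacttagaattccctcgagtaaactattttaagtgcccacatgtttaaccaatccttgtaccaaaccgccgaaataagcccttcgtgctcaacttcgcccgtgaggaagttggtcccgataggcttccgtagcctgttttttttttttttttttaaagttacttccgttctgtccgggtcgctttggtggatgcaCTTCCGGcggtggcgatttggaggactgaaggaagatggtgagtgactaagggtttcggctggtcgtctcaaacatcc
Psmd12: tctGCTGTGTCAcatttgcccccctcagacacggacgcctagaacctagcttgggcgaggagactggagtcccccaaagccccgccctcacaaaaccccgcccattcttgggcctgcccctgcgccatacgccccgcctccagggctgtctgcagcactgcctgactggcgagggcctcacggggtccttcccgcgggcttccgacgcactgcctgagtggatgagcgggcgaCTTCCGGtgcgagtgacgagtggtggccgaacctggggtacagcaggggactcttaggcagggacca

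The antioxidant response element core was found in 5 of the 29 genes (17.2%), namely Psmb5, Psmb6, Psmc6, Psmd9 and Psmd12, and in 14.0% of 27025 genes in all. The ETS site was found in 11 of the 29 (37.9%) and in 9.93% of all genes. The 11 were Psma6, Psmc1, Psmc2, Psmc3ip, Psmc6, Psmd2, Psmd4, Psmd6, Psmd11, Psmd12 and Psmd13. Among them Psmc3ip is no subunit, and Psmc3ip and Psmd2 read within the range of unspecific signal. CCAAT, the box bound by NF-Y, was found in 12 of the 29 (41.4%) and in 41.1% of all genes. Of the 11 genes with the ETS site, 3 passed as lower in medium without the block (Psmc1, Psmd4 and Psmd11) and 10 with it. These counts were 1 and 4 for the 5 genes with the antioxidant response element core, and 5 and 11 for the 12 with CCAAT. They were 13 and 28 for all 35 genes, which include those without a window. Whether a motif goes with the fall was not tested. The median GC content was 56.7% in the 31 windows of members and 52.7% in all 32851 windows. A match is a description of these letters and not of a bound factor.

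Alpha ring genes lay close to each other. In medium all 7 had negative differences, from -0.76 to -0.50 with a median of -0.64, and 2 fell, or all 7 with the block. Psma3 read 10.07 and 10.10 early and 9.25 and 9.39 late, a fall of 0.76 on the log2 scale (SE 0.15, adjusted p = 0.023; all such values are limma's, adjusted by Benjamini-Hochberg over 12422 probe sets). With IFN-γ its arrays read 9.96 and 10.06, then 9.35 and 9.77, a difference of -0.45 (SE 0.15, adjusted p = 0.181, blocked 0.0273). Neither pair of groups overlapped. Psma7 went from 9.08 and 9.25 to 8.29 and 8.63 in medium, a fall of 0.71 (SE 0.16, adjusted p = 0.0441). With IFN-γ it went from 9.19 and 9.42 to 8.52 and 8.83, a difference of -0.63 (SE 0.16, adjusted p = 0.0892, blocked 0.0024). Psma5 was 9.45 and 9.72 in medium at 4 hours and 8.73 and 9.08 at 16 hours, a difference of -0.68 that did not pass without the block (adjusted p = 0.0801, or 0.00117 with it). Its arrays of number 2 were higher than those of number 1 in all 4 groups. With IFN-γ none of the 7 passed without the block and 6 did with it, the exception being Psma6 (-0.41, adjusted p = 0.0626 with the block).

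The differences of the 4 structural beta ring genes ran from -0.60 to -0.13 in medium, and 2 fell. Psmb3 went from 10.16 and 10.02 to 9.48 and 9.50 in medium, a fall of 0.60 (SE 0.12, adjusted p = 0.0262). Psmb2 went from 9.17 and 9.25 to 8.59 and 8.74, a fall of 0.55 (SE 0.11, adjusted p = 0.0286). Psmb1 went from 9.31 and 9.48 to 9.22 and 9.30, so its groups lay close without overlap, with a difference of -0.13 (adjusted p = 0.645). Its 2 dimmer probe sets differed by 0.13 and 0.10. For Psmb4 the brightest probe set gave -0.39 (adjusted p = 0.169; blocked 0.0173), while its others, at a mean log2 intensity of 5.40 and 2.27, differed by -0.01 and -0.13.

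The genes of the 3 constitutive proteases were lower at 16 hours in both media. Psmb6, the caspase-like protease, read 7.46 and 7.47 in medium at 4 hours and 6.71 and 6.99 at 16 hours, a fall of 0.61 (SE 0.12, adjusted p = 0.0275). Psmb5, the chymotrypsin-like protease, read 8.29 and 8.54, then 7.56 and 7.85, a difference of -0.71 (SE 0.21, adjusted p = 0.106, blocked 0.00236). Psmb7, the trypsin-like protease, read 8.45 and 8.24, then 7.67 and 7.94, a difference of -0.54 (SE 0.14, adjusted p = 0.0679, blocked 0.0186). In each of the 3 genes the groups did not overlap, and the spread between arrays was widest for Psmb5. With IFN-γ they differed between the times by -0.38 for Psmb6, -0.54 for Psmb5 and -0.54 for Psmb7, and passed only with the block (adjusted p = 0.035, 0.0121 and 0.0224). The dimmer probe set of Psmb5, at a mean of 6.26 against 8.09, differed by 0.15 in medium (adjusted p = 0.682), so the lower level of Psmb5 was seen on its brighter probe set and not on the other.

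Among the 6 cap ATPases, 3 fell in medium and 1 with IFN-γ, or 5 and 4 with the block. Psmc1 passed in both media. It went from 7.80 and 7.97 to 7.17 and 7.37 in medium, a fall of 0.61 (SE 0.14, adjusted p = 0.0411), and from 7.81 and 8.05 to 7.15 and 7.34 with IFN-γ, a fall of 0.69 (SE 0.14, adjusted p = 0.0385). Psmc3 went from 8.50 on both arrays to 7.67 and 7.94 in medium, a fall of 0.70 (SE 0.14, adjusted p = 0.0256). Of its dimmer probe sets, 1 fell by 0.52 (adjusted p = 0.0441) and the other differed by -0.54 (adjusted p = 0.0838). Psmc5 went from 7.28 and 7.31 to 6.70 and 6.84 in medium, a fall of 0.53 (SE 0.11, adjusted p = 0.0269). With IFN-γ it read 7.18 and 7.20, then 7.01 on both arrays, a difference of -0.18 (adjusted p = 0.514, blocked 0.257). The dimmer probe set of Psmc5, at a mean log2 intensity of 3.08, differed by -0.20 in medium (adjusted p = 0.618, blocked 0.254). Psmc6 shows how much the arrays of a number shared: its arrays of number 1 went from 9.06 to 8.61 and those of number 2 from 9.45 to 9.03. It differed by -0.43, with an adjusted p of 0.443 without and 0.017 with the block. Psmc2 differed by -0.63 (adjusted p = 0.166, blocked 0.00817).

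In medium the largest falls were those of cap non-ATPases. Psmd7, a scaffold that pairs with the deubiquitinase of the cap, read 9.27 and 9.26 in medium at 4 hours and 8.24 and 8.59 at 16 hours, a fall of 0.85 (SE 0.15, adjusted p = 0.0157). With IFN-γ it read 9.18 and 9.16, then 8.39 and 8.71, a difference of -0.61 (adjusted p = 0.0759, blocked 0.00846). Psmd1, the scaffold that binds ubiquitin receptors, read 8.99 and 8.95, then 8.22 and 8.09, a fall of 0.81 (SE 0.12, adjusted p = 0.00838), the smallest p of the 35 genes in this comparison. With IFN-γ Psmd1 read 8.97 and 8.74, then 8.52 and 8.37, a difference of -0.41 (adjusted p = 0.14, blocked 0.0182). Psmd1 was also an exception to the order of the arrays: array 1 was above array 2 in all 4 groups.

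Psmd3, Psmd4 and Psmd11 also fell in medium. Psmd3 went from 8.68 and 8.63 to 7.97 and 8.12, a fall of 0.61 (SE 0.12, adjusted p = 0.0251). Psmd4, a receptor for ubiquitin chains, went from 9.69 on both arrays to 9.18 and 9.26, a fall of 0.46 (SE 0.10, adjusted p = 0.0395). Psmd11, a structural subunit of the cap's lid, went from 8.93 and 8.97 to 8.26 and 8.34, a fall of 0.64 (SE 0.13, adjusted p = 0.0284). Of its dimmer probe sets, 1 fell by 0.87 (adjusted p = 0.0341) and the other differed by 0.24 (adjusted p = 0.43). Psmd14, the deubiquitinase of the cap, differed by -0.61 in medium and -0.62 with IFN-γ (adjusted p = 0.095 and 0.116, or 0.00385 and 0.00452 with the block). Psmd8 was the member of this group, apart from Psmd2, with the smallest difference, -0.31 in medium (adjusted p = 0.184, blocked 0.0636).

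The assembly chaperones did not pass in medium, with or without the block. Psmd5 differed by -0.22, Psmd10 by -0.19 and Psmd9 by -0.11, all smaller in size than the median of the 31 subunits, -0.61. Some subunits also differed little in medium, such as Psmb1 at -0.13 and Psmd8 at -0.31. Psmd9, a chaperone of the ATPase ring, read 7.41 and 7.17 in medium at 4 hours and 7.40 and 6.96 at 16 hours, with the groups overlapping. Psmd10, also known as gankyrin, read 6.19 and 6.49 with IFN-γ at 4 hours and 5.66 and 6.07 at 16 hours, a difference of -0.47 (adjusted p = 0.26, blocked 0.0126). The median of the 31 subunits with IFN-γ was -0.46, while Psmd5 differed by -0.31 and Psmd9 by 0.11. Whether the chaperones differ from the subunits was not tested. Psmc3ip, the gene that is no subunit, differed by -0.53 in medium (adjusted p = 0.0646), at intensities below the antisense controls.

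**Figure D2:**
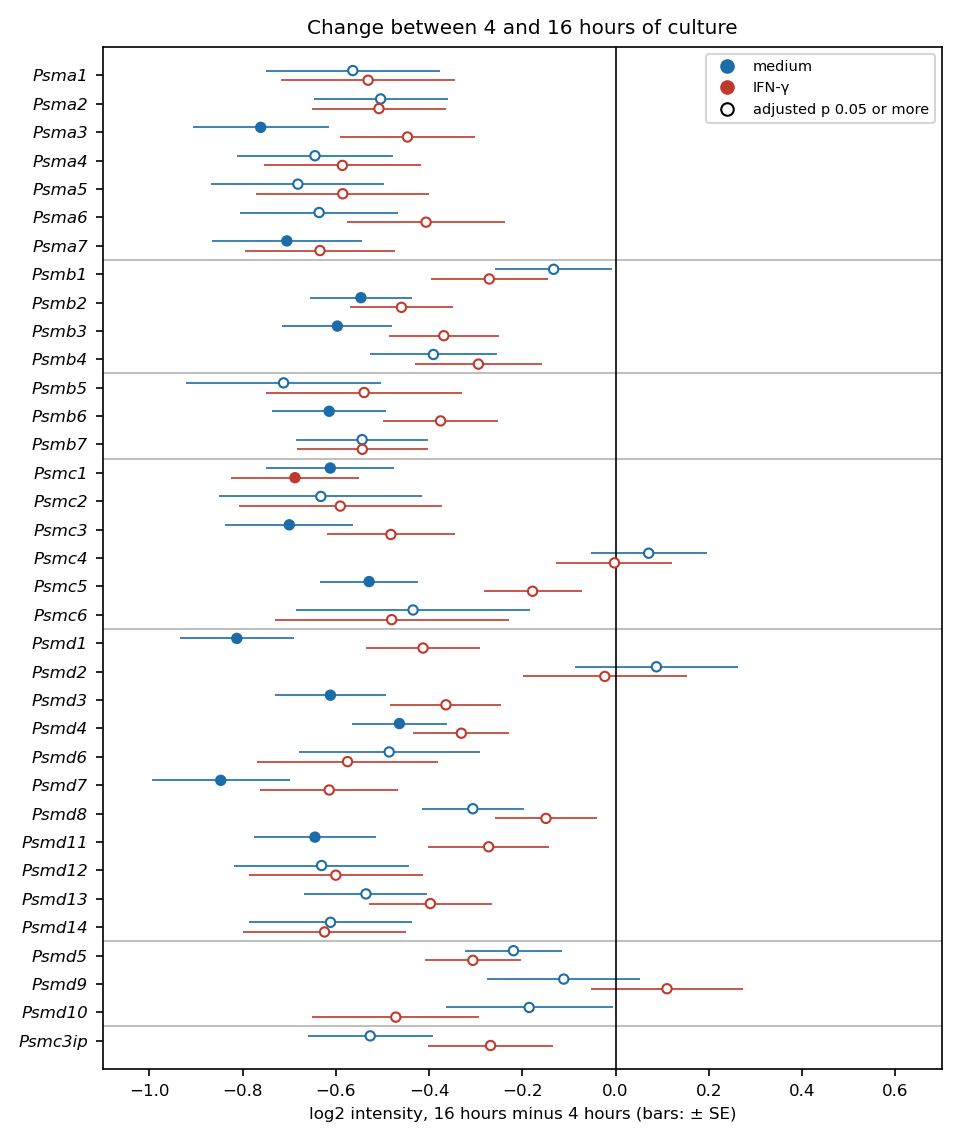
Log2 intensity at 16 hours minus that at 4 hours for each of the 35 genes, in medium (blue) and with IFN-γ (red), with bars of 1 SE from limma and lines between the roles (alpha ring, structural and catalytic beta ring, ATPases, non-ATPases, chaperones and Psmc3ip). Filled points passed at an adjusted p under 0.05, 13 in medium and 1 with IFN-γ, and 25 of 35 points in medium lie between -0.8 and -0.4.

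Other features of the arrays moved with time and stand beside this result. Over all 12422 probe sets, 531 passed between the times in medium, 319 of them as lower, and 263 with IFN-γ, 161 of them as lower. Of 12 macrophage markers measured, 10 rose and 1 fell in medium between 4 and 16 hours, and 8 rose and 1 fell with IFN-γ. Their summed intensity went from 1775 and 1813 in medium at the early time to 4563 and 5372 at 16 hours, and from 1340 and 1342 to 3329 and 4125 with IFN-γ; in each group 3 or 4 of the 12 were below the antisense controls. The 11 dendritic cell markers measured summed to 4906 and 5019, then 4349 and 4384 in medium, and to 5276 and 5296, then 4696 and 5126 with IFN-γ, and 2 or 3 of the 11 were below those controls. Taken gene by gene, 1 of these 11 fell and none rose in either medium. Their median difference between the times was -0.05 in medium, with 7 negative, and -0.09 with IFN-γ, with 6 negative. In these bulk samples, fewer cells of a type and less RNA per cell cannot be told apart. RNA quality can be read from Actb, whose 3′ probe set over its 5′ probe set gave ratios of 2.04 and 2.20 in medium at 4 hours and 1.57 and 1.63 at 16 hours. With IFN-γ it was 1.47 and 1.65 at 4 hours and 1.66 and 1.68 at 16 hours. The same ratio for Gapdh was 1.14 and 1.31 in medium at 4 hours and 0.89 and 0.83 at 16 hours. For Gapdh with IFN-γ it was 0.88 and 0.92 at 4 hours and 0.83 and 0.91 at 16 hours. The 6 B cell markers summed to 2625 and 3005 in medium at 4 hours, 3017 and 3265 at 16 hours, and 2203 and 2324, then 3213 and 3432 with IFN-γ. Of 4 erythroid markers measured, Hba-a1 and Hbb-b2, which encode globins, fell in both media, and the other 2 did not pass. Their sum went from 458 and 459 to 245 and 261 in medium and from 414 and 433 to 252 and 295 with IFN-γ, with 3 of the 4 below the antisense controls in every group. The part of the cell makeup and of RNA quality in the falls was not tested.

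The number of an array also moved with the subunits. In medium at 16 hours array 1 was below array 2 in 29 of 35 genes, by a median of 0.20, and with IFN-γ at 16 hours in 27, by a median of 0.27. Over all probe sets array 1 was the lower in 42.5% and 40.1%. At 4 hours array 1 was the lower in 23 genes in medium, by a median of 0.04, and in 28 with IFN-γ, by a median of 0.10. The difference between the times was therefore read within each number: in medium it was negative in 33 genes for array 1, with a median of -0.64, and in 34 for array 2, with a median of -0.48. With IFN-γ the medians were -0.56 for array 1 and -0.36 for array 2, and 32 and 34 genes were negative.

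IFN-γ itself had no effect that passed on any of the 35 genes. At 4 hours 0 of 35 passed by limma, where 0.258% of all probe sets did, and 0 with the block, where 1.26% did; 1 gene had an unadjusted p under 0.05. The median difference between IFN-γ and medium was 0.01, beside -0.01 over all probe sets. Both IFN-γ arrays lay below both medium arrays in 8 genes, which is so for 17.9% of all probe sets. The largest difference was that of Psmd11, with 8.93 and 8.97 in medium against 8.67 and 8.60 under IFN-γ, a difference of -0.32 (SE 0.13, adjusted p = 1, blocked 0.374). At the other end Psma7 differed by 0.14.

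At 16 hours 0 of 35 passed either, where 0.258% of all probe sets did, or 0.845% with the block; 3 genes had an unadjusted p under 0.05. The difference was positive in 28 of the 35 genes, with a median of 0.11 beside -0.00 over all probe sets, and both IFN-γ arrays lay above both medium arrays in 7, as 9.1% of all probe sets did. That median was -0.04 without IFN-γ array 2, -0.00 without array 1 of medium, 0.24 without IFN-γ array 1 and 0.23 without array 2 of medium, all at 16 hours. Each of these fits leaves the array numbers unbalanced between the groups. Within a number the median was 0.09 for array 1, with 11 of 35 genes negative, and 0.13 for array 2, with 6 negative. Psmd1 had the highest value, 8.22 and 8.09 in medium against 8.52 and 8.37 with IFN-γ, a difference of 0.29 (SE 0.12, adjusted p = 1, blocked 0.36). Psmd10 had the lowest, 5.92 and 6.28 against 5.66 and 6.07, a difference of -0.23. In a fit that adds up treatment and time, 0 of 35 passed, where 0.531% of all probe sets did, or 1.26% with the block; 1 had an unadjusted p under 0.05, and the median was 0.05.

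Whether the IFN-γ effect differed between the times, which is the same contrast as whether the fall with time differed between the media, was tested directly. No gene passed, with or without the block, where 0 and 0.242% of all probe sets did; 2 had an unadjusted p under 0.05. The differences of effects had a median of 0.10 and ran from -0.29 for Psmd10 to 0.40 for Psmd1. For Psmd1 the fall was 0.81 in medium beside a difference of -0.41 with IFN-γ, and for Psmc5 0.53 beside -0.18. These arrays do not show that the fall was smaller with IFN-γ for either gene.

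**Figure D3:**
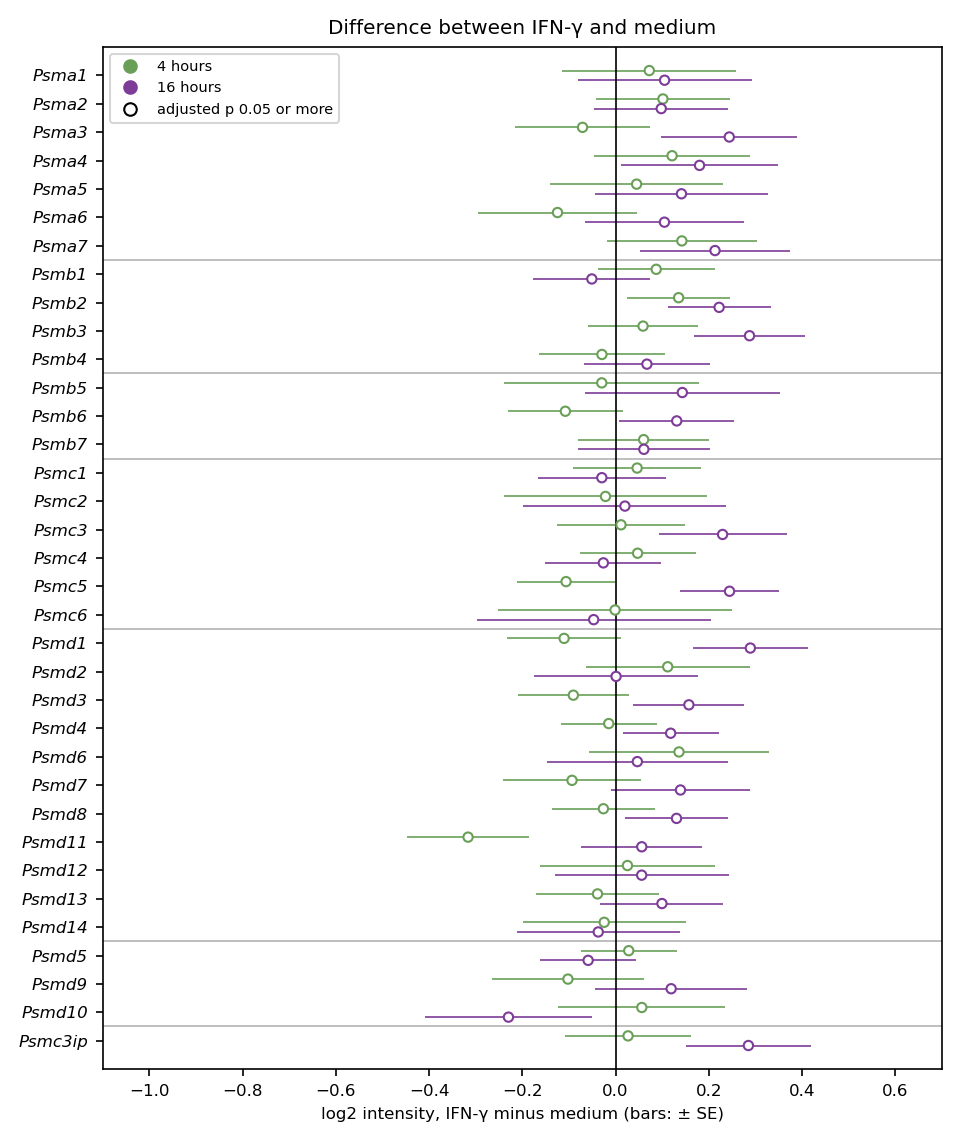
Log2 intensity with IFN-γ minus that in medium for each of the 35 genes, at 4 hours (green) and at 16 hours (purple), with bars of 1 SE from limma and the same horizontal scale as the plot of the change with time. All points are open, since no gene passed at an adjusted p under 0.05, and they lie between -0.32 and 0.29.

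For the 3 constitutive proteases the precision can be given. The difference between IFN-γ and medium at 4 hours was -0.11 for Psmb6 (95% confidence interval from limma, -0.38 to 0.17), 0.06 for Psmb7 (-0.26 to 0.38) and -0.03 for Psmb5 (-0.50 to 0.44). At 16 hours it was 0.13 (-0.15 to 0.41), 0.06 (-0.26 to 0.38) and 0.14 (-0.33 to 0.62). Changes of up to these bounds are within what the arrays allow. Their inducible counterparts read as follows. Psmb9, which replaces Psmb6, was 10.48 and 10.47 in medium against 10.83 and 10.75 under IFN-γ at 4 hours, a difference of 0.32 (adjusted p = 0.877, blocked 0.314), and differed by 0.50 at 16 hours (adjusted p = 0.291, or 0.0679). Psmb10, which replaces Psmb7, differed by 0.27 and 0.56, and the latter passed with the block only (adjusted p = 0.0935, or 0.0144). Psmb8, which replaces Psmb5, differed by 0.12 and 0.30 and did not pass (adjusted p of 1 at both times). From 4 to 16 hours in medium the inducible genes differed by -0.20 for Psmb9, -0.24 for Psmb10 and -0.34 for Psmb8, and none of them passed with or without the block. Whether a constitutive gene and its counterpart differ in their response was not tested.

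**Figure D4:**
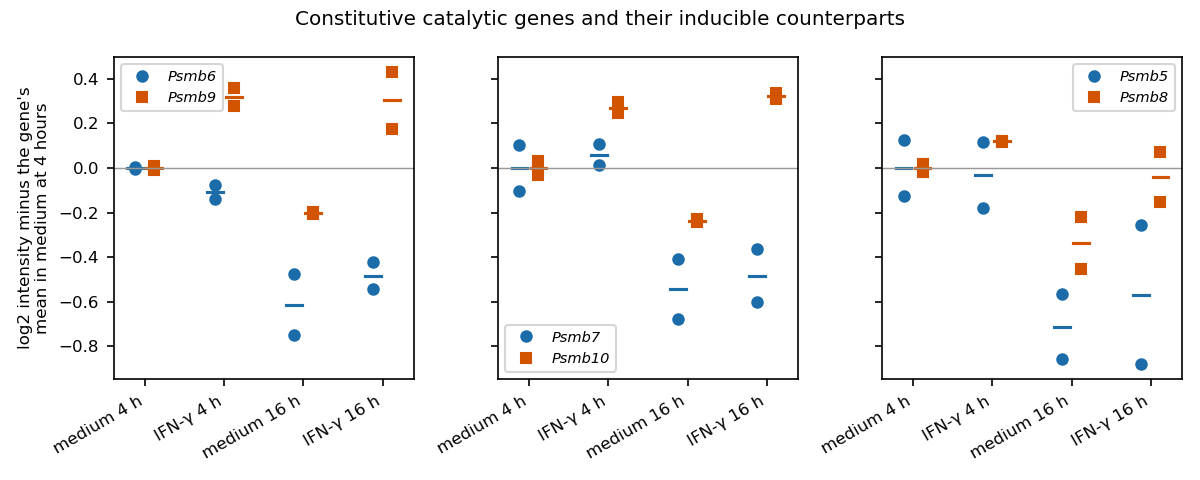
Log2 intensity of each constitutive protease gene (circles) and its inducible counterpart (squares) on the 2 arrays of each group, minus the gene's own mean in medium at 4 hours, with short lines at group means. Psmb6, Psmb7 and Psmb5 sit lower at 16 hours in both media, and Psmb9, Psmb10 and Psmb8 sit higher with IFN-γ than in medium at both times.

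Other genes of the pathway were read from lists of assembly factors, activators and ubiquitin handling. Of 15 measured activators and regulators, 1 fell in medium between the times, and 8 fell with the block. Over all probe sets 2.57% fell there, or 8.09% with the block. The 1 gene was Nfe2l1, which encodes NRF1, the transcription factor that raises proteasome genes when proteasomes fall short. Nfe2l1 went from 8.77 and 8.78 to 8.13 and 8.22 in medium, a fall of 0.60 (adjusted p = 0.0165), and from 8.68 and 8.61 to 8.11 and 8.21 with IFN-γ, a difference of -0.48 (adjusted p = 0.0554, blocked 0.00877). The median of the list was -0.33. Usp14 and Uchl5, deubiquitinases that dock on the cap, differed by -0.64 and -0.60 in medium (adjusted p = 0.00537 and 0.00504 with the block, 0.169 and 0.132 without), at group means of 5.33 to 6.06, close to the antisense controls. Psme1, a subunit of the interferon-inducible activator, differed by -0.43 between the times in medium (adjusted p = 0.0759, or 0.0152 in the blocked fit) and by 0.43 with IFN-γ at 16 hours (adjusted p = 0.495, blocked 0.0978). Nfe2l2, whose product NRF2 binds the same element as NRF1, differed by 0.06, and Sem1, a small cap subunit outside the symbol rule, by -0.02.

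Of 10 genes measured that supply and deliver ubiquitin, 1 fell in medium, and 3 did with the block. Of all probe sets 2.57% and 8.09% did. The 1 gene was Vcp, which encodes the ATPase that extracts ubiquitinated proteins from complexes and membranes. Vcp went from 9.74 and 9.82 to 8.97 and 9.24, a fall of 0.68 (adjusted p = 0.0368), and from 9.61 and 9.68 to 8.95 and 9.31 with IFN-γ, a difference of -0.51 (adjusted p = 0.127, blocked 0.0116). Ubqln2 and Rad23b, shuttles that carry ubiquitinated proteins to the proteasome, were the others to pass with the block in medium, at -0.62 and -0.31, but Ubqln2 was dimmer than the antisense controls in medium. With IFN-γ none of either list passed between the times without the block, where 1.3% of all probe sets fell. With the block 4 of the 15 and 2 of the 10 fell, where 6.94% of all probe sets did. Between IFN-γ and medium at 4 hours, at 16 hours and in the additive fit, none of the 15 or the 10 passed, with or without the block.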

How the data were processed

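Total RNA of cultured spleen CD8+ dendritic cells was measured on 8 arrays in 4 groups, taken from the sample titles. The authors deposited intensity summaries per probe set on a linear scale. The submitters' processing notes name RMA, and its version and settings are not given in the sources used here. Log2 was taken with no pseudocount or further normalization. The table holds 12488 probe sets, from which 66 controls of the array were removed. The platform annotation gave 10833 probe sets 1 symbol, 396 several and 1193 none, and all 35 members matched RefSeq by gene number.

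Differences were tested by moderated two-sided tests in limma 3.58.1 (R 4.3.3) over all 8 arrays, with group means as coefficients, Benjamini-Hochberg adjustment over 12422 probe sets and a threshold of 0.05. The code was tested on simulated data. Differences between array 1 and array 2 correlated between groups with r from 0.367 to 0.740 (6 pairs of groups), all above 0.1, and the numbers were taken to pair the arrays; no label states this. Genes named are the members that passed, the extremes of each comparison, the proteases, the chaperones and the listed pathway genes that passed, and Psma5, Psma6, Psmb1, Psmb4, Psmc2, Psmc6, Psmd8, Psmd14, Usp14, Uchl5, Psme1, Nfe2l2, Sem1, Ubqln2, Rad23b, Cd8a and Cd79a were chosen after their values were seen. Members and lists were chosen with earlier results of these data known. Alternatives were other normalizations, filters, priors, probe sets and members, the block, and each array left out. Promoter searches for interferon response motifs are not reported here.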

Additional observations from a re-analysis of the deposited data

How the results depend on the processing

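For IFN-γ against medium at 4 hours and at 16 hours, the difference of these effects and the additive fit, the count of members called was 0 in every alternative run. For medium between the times, 13 members were called; the count was 28 with the replicate block, 21 in a fit of only the 4 arrays compared, 1 at an adjusted p under 0.01, and 8 without both 16-hour arrays of number 1, an alternative chosen after the data had been seen, as was leaving out members below the antisense level. It ran from 0 to 24 over the fits without 1 array, and was 11 to 14 in the other alternatives. With IFN-γ, 1 member was called between the times; the count was 24 with the replicate block, 2 without the dimmest 40% of probe sets, 0 in a fit of only the 4 arrays compared, 0 at an adjusted p under 0.01, 0 without both 16-hour arrays of number 1, and 0 to 15 over the fits without 1 array. The median difference between the times was negative in all 20 alternatives in both media. Of the 14 called differences of single genes, 1 changed sign: Psmd11 in medium was 0.24 on its dimmest probe set. None of the 14 was called in every alternative, since without either array of medium at 4 hours none passed in medium or with IFN-γ. A fit of only the arrays compared gives no value for the difference of effects or the additive fit. The cause of these shifts was not tested. With 2 arrays a group, and 3 members near unspecific signal, small differences could not be detected.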
